A study of Mus musculus with 4 samples.

Results

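The 10 integrin genes of macrophages examined here encode the α chains Itgam (CD11b), Itgax (CD11c), Itgal (CD11a), Itga4, Itga6 and Itgav and the β chains Itgb2, Itgb1, Itgb3 and Itgb5. Open chromatin regions were taken as theirs when the nearest transcription start site (TSS) of the region's midpoint was that of one of these genes or when the region overlapped the gene body. Of 70744 regions in the whole series, 100 were assigned in this way, and 1 of them belonged to both Itgam and Itgax. Integrins are heterodimers of an α and a β chain that bind matrix proteins and counter-receptors on other cells. The leukocyte β2 integrins pair Itgb2 with Itgam, Itgax or Itgal and serve adhesion, migration and the uptake of complement-coated particles. Itgb1 pairs with Itga4 or Itga6 to bind fibronectin, VCAM-1 or laminin, and Itgav pairs with Itgb3 or Itgb5 to bind vitronectin and bridging proteins on apoptotic cells.

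Accessibility was measured by ATAC-seq, in which a transposase tags open DNA, in large peritoneal macrophages (LPMs, F4/80 high and MHCII low) of 9-week-old C57BL/6 mice. The genotypes compared were RXRabfl/fl mice, whose floxed Rxra and Rxrb alleles are intact, and LysMCre+RXRabfl/fl mice, in which Cre under the LysM locus deletes both retinoid X receptor genes in myeloid cells, so that both genotypes carry the floxed alleles. Each genotype had 2 libraries of 40000 sorted cells, replicates 1 and 3 of RXRabfl/fl and replicates 1 and 2 of LysMCre+RXRabfl/fl. CD11b, the product of Itgam, was part of the sorting gate in both genotypes. The study's reporting form states that samples which did not group with their genotype were left out, so the spread between libraries may be understated.

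The libraries held 38048 and 16097 peaks in RXRabfl/fl and 65421 and 55581 peaks in LysMCre+RXRabfl/fl. RXRabfl/fl replicate 3 stood apart, with the fewest peaks and a median summit pileup of 20 tags over the 15199 regions called in all 4 libraries, against 65 to 99 tags in the others. The lowest background solved at a called peak was 1.97 and 1.06 tags per 200 bp in RXRabfl/fl and 1.33 and 1.08 in LysMCre+RXRabfl/fl. It is only a rough guide to depth, which was not measured. Promoters of the LPM markers were called for 5 and 4 of 6 genes in RXRabfl/fl and for all 6 in both LysMCre+RXRabfl/fl libraries. Their summed fold enrichment was 52.7 and 27.9 in RXRabfl/fl against 49.8 and 45.9 in LysMCre+RXRabfl/fl. Promoters of markers of small peritoneal macrophages, another myeloid population of the cavity, were called for 4 and 1 of 8 genes in RXRabfl/fl. In each LysMCre+RXRabfl/fl library 7 were called, and the summed fold enrichment was 32.5 and 6.37 against 64.8 and 51.2. Both LysMCre+RXRabfl/fl libraries lay above both RXRabfl/fl libraries at Mrc1, Retnla, H2-Ab1, Clec4b1 and Fcrls. Irf4 overlapped, Ccr2 had no promoter call, and Cd74 was higher in RXRabfl/fl replicate 1 than in either LysMCre+RXRabfl/fl library. Over the whole series, 36800 and 15478 regions were called in RXRabfl/fl and 64159 and 54633 in LysMCre+RXRabfl/fl. The share of all promoters called in each library is not given here. Neutrophil marker promoters were called for 2, 0, 4 and 2 of 6 genes in the same order of libraries, with those of S100a9 and Mpo called in none. The promoters of Ebf1 among 6 B cell markers and of Pf4 among 5 platelet markers were the only ones of their lists called, in 3 and in 4 libraries. No marker promoter was called for T cells, eosinophils, mast cells or mesothelial cells. Regions away from the promoters of these genes were called, so the presence of such cells was not tested. In the same order of libraries they numbered 4, 2, 10 and 7 for T cells and 7, 3, 10 and 10 for eosinophils. For mast cells they numbered 0, 0, 2 and 0, and for mesothelial cells 2, 1, 10 and 10. The promoters of Rxra and Rxrb, the deleted genes, were called in all 4 libraries, which does not test the deletion of internal exons.

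Part of the 17 sequences extracted around summits is shown. They come from promoters, the region that passed a threshold and regions called in 1 genotype only, which carry the comparisons described next. All are from the plus strand of mm10 (GRCm38), on which each of the 10 genes is transcribed. Capitals mark matches, on either strand, to PU.1 (GAGGAAGT), C/EBP (TTNCNNAA), AP-1 (TGANTCA), the GATA factors with the letters AGATAA, KLF (GGGNGTGG) or RUNX (TGTGGTT). Where the summit window reached an annotated exon, the 101 bases before that exon are shown in its place.
Itgam promoter, chr7:128062539-128062639: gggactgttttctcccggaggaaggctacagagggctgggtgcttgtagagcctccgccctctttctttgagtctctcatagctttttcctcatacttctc
Itga4 promoter, chr2:79254817-79254917: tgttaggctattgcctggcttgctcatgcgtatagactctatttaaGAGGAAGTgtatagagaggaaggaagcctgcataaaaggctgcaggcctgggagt
Itgav promoter, chr2:83724296-83724396: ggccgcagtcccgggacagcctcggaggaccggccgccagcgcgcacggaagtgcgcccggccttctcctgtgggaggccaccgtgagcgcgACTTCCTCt
Itgb1 far upstream, chr8:128594971-128595071: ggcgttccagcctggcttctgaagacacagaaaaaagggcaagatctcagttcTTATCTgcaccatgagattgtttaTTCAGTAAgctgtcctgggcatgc
Itgb1 intron, chr8:128694641-128694741: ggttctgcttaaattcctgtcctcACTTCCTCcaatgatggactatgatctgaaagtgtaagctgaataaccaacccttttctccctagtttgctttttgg
Itga4 upstream, chr2:79214074-79214174: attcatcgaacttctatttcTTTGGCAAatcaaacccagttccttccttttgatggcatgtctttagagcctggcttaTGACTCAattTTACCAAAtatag
Itgav intron, chr2:83742316-83742416: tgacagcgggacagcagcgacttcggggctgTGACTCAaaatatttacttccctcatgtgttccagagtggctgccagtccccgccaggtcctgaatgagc
Itgb5 upstream, chr16:33820887-33820987: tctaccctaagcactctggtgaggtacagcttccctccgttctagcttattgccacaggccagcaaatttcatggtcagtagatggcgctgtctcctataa
Itgb5 intron, chr16:33923098-33923198: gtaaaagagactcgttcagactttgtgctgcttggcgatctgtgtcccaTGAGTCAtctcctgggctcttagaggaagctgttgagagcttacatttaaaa
The Itga4 and Itgav promoters each held a PU.1 match, the motif of the myeloid ETS factor, and the latter lay within 10 bases of the annotated start. The stretches at the Itgb1 and Itga6 promoters, which are not shown, held no match. Those 6.91 kb upstream of Itgb2 and 134 kb upstream of Itgb1, also not shown, held none. The same held for those 29.45 kb upstream of Itga6 and 4.165 kb into Itgav. Those 168 kb upstream of Itga4 and 21.8 kb upstream of Itga6, not shown either, each held a C/EBP match. The Itgam stretch, which ended before the summit, held no match to any of these motifs, nor did the Itgb5 upstream stretch. The wider search within 100 bp of summits found further matches, among them a C/EBP match at the Itgam promoter region.

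Over all 100 integrin regions, a PU.1 match lay within 100 bp of the strongest summit in 17.0%, against 9.3% of all 70744 regions. AP-1 matches were found in 25.0% against 12.7% and C/EBP matches in 49.0% against 36.1%. Matches to GATA were found in 8.0% against 6.4%, RUNX matches in 9.0% against 5.9% and KLF matches in 8.0% against 10.4%. The direct repeats DR1 and DR5, which RXR dimers bind, were matched in 0 integrin regions and in 0.2% of all regions each, and CTCF in 1.0% against 3.9%. By gene, PU.1 matches were found at 4 of 11 Itgam regions and 3 of 8 Itgav regions but at 0 of 4 Itgb3 regions, and AP-1 matches at 7 of 17 Itgb5 regions and 0 of 5 Itgal regions. These shares describe letters in the reference genome and were not tested.

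**Figure D1:**
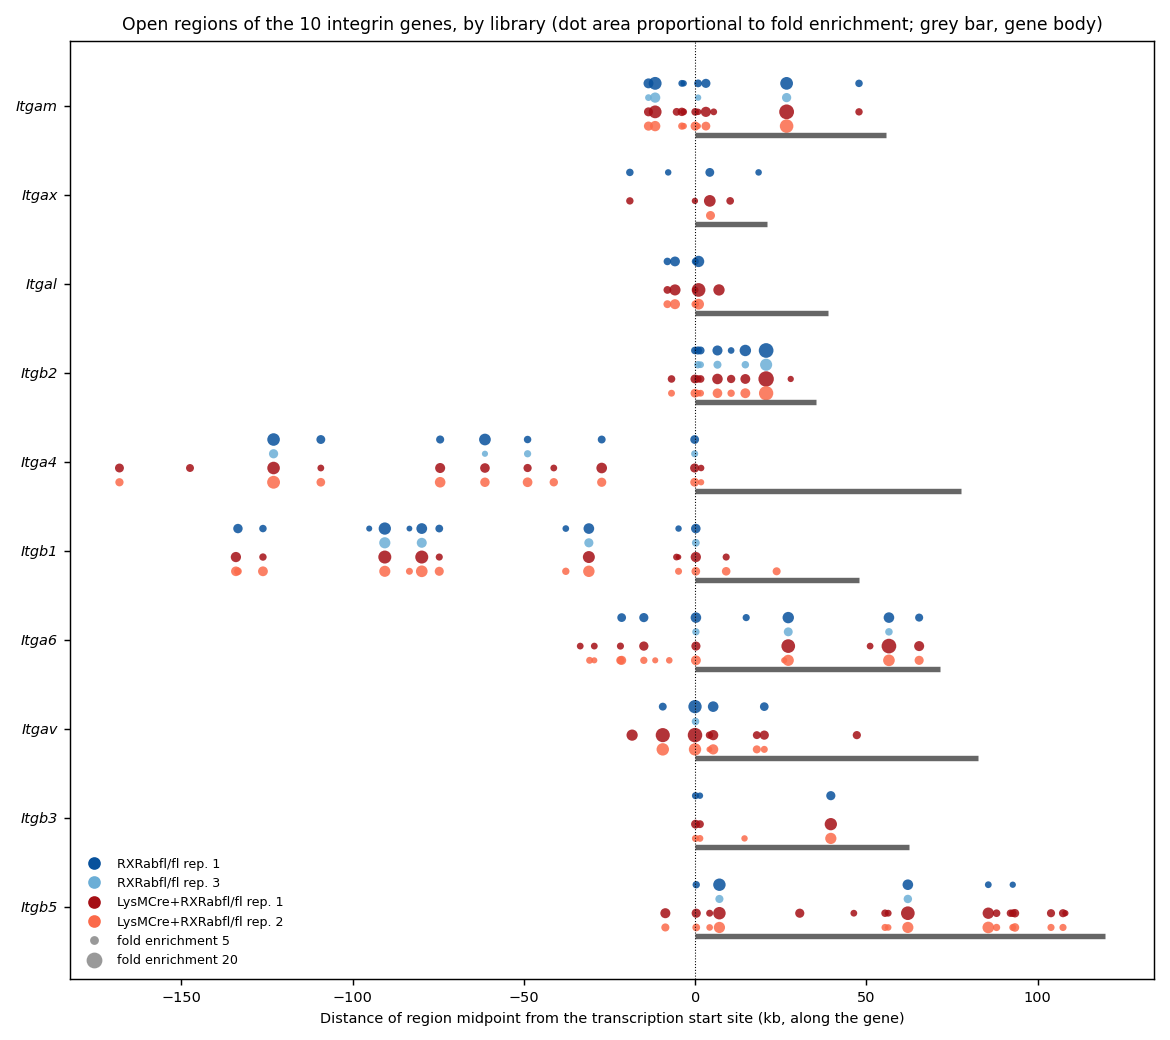
Position of every integrin region by gene. The x axis gives the distance in kb from the gene's start site, each gene has 4 lines of dots, 1 per library, and dot area is proportional to fold enrichment. Itga4 and Itgb1 regions lay mostly upstream, Itgb2 and Itgb5 regions mostly within the gene body.

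The integrin regions lay mainly away from promoters. Of the 100, 46 had their midpoint in an intron of the gene, 45 upstream of it, 6 in a coding exon and 3 in the exonic 5′ untranslated region. Only 8.0% had their midpoint in the promoter-TSS window, which spans the 1 kb before a TSS and the 200 bp after it, against 17.6% of all regions. A set of 10 genes has few start sites and the rule takes in whole gene bodies, so this share depends in part on the selection. Among the regions called in all 4 libraries, 3 of 23 integrin regions had their midpoint in that window, against 46.3% of all such regions. The genes differed in where their regions lay. Upstream regions reached 168 kb from the Itga4 start, where 9 of 11 regions lay more than 10 kb upstream, and 134 kb from the Itgb1 start, where 10 of 15 did. In contrast, 7 of 9 Itgb2 regions and 16 of 17 Itgb5 regions lay within the gene, and 8 of the Itgb5 regions, in the 3′ part of this long gene, were nearer to the start of Umps.

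**Figure D2:**
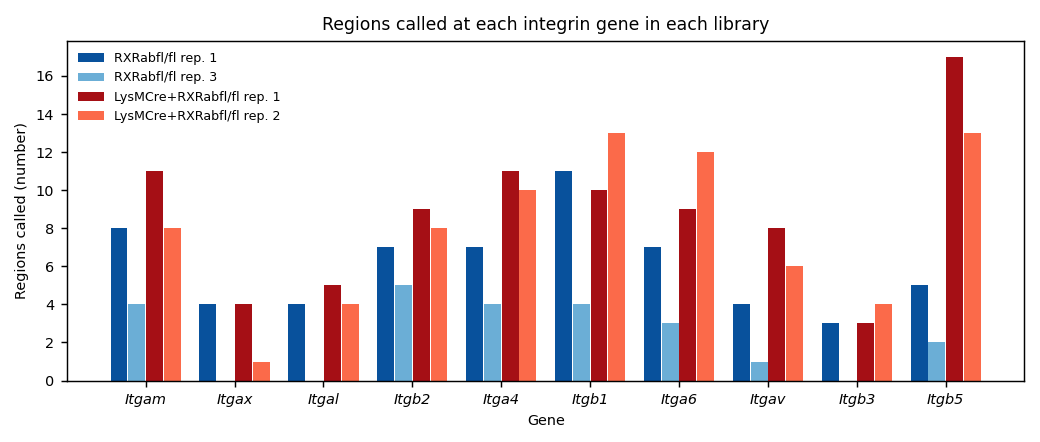
Number of regions called at each integrin gene (x axis) in each of the 4 libraries (bars). RXRabfl/fl replicate 3 had the fewest at every gene, with none at Itgax, Itgal and Itgb3, and Itgb5 had 17 and 13 regions in LysMCre+RXRabfl/fl against 5 and 2 in RXRabfl/fl. With the same number of peaks per library (not drawn), Itgb5 had 2 and 3 against 2 and 2.

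More integrin regions were called in LysMCre+RXRabfl/fl, but not as a larger share of what each library held. RXRabfl/fl replicates 1 and 3 had 59 and 23 integrin regions, and LysMCre+RXRabfl/fl replicates 1 and 2 had 86 and 79. Both LysMCre+RXRabfl/fl libraries thus lay above both RXRabfl/fl libraries in number. As a share of all regions called in the library, integrin regions made up 0.154% ± 0.00829 (SD, n = 2) in RXRabfl/fl and 0.139% ± 0.00747 (SD, n = 2) in LysMCre+RXRabfl/fl, a difference of −0.0151 percentage points (exact two-sided permutation test, p = 0.333, the smallest p that 4 libraries allow). The spread over libraries in how often a region was called resembled that of all regions, with 23 integrin regions called in all 4 libraries (23.0%, against 21.5% of all regions), 27 in 3, 24 in 2 and 26 in 1, against 25.7%, 26.0% and 26.9% of all regions. All 23 regions called in RXRabfl/fl replicate 3 were also called in the other 3 libraries, as were 98.2% of all regions of that library, and the 27 regions called in 3 libraries were each missing from that library alone.

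Regions called in both LysMCre+RXRabfl/fl libraries and in neither RXRabfl/fl library numbered 19 of 100, against 22.8% of all regions, and regions of the opposite pattern numbered 0, against 0.0452% of all regions. The integrin genes thus carried no more of these than the background. Itgb5 held 8 of the 19, Itga4 3, Itgb1, Itga6 and Itgav 2 each, and Itgam and Itgb2 1 each, while Itgax, Itgal and Itgb3 had none. Their fold enrichments over the local background ranged from 3.57 to 10.8 and their pileups from 10 to 65 tags. Over these regions the median of the mean fold enrichment was 5.96, against 11.8 for the integrin regions called in all 4 libraries. A region without a call was below the authors' threshold in that library and is not known to be closed. In these bulk samples, a region open in fewer cells and a region less open in each cell cannot be told apart. When each library was reduced to its 16097 peaks with the lowest p values, 31 integrin regions remained, of which 1 was called in both LysMCre+RXRabfl/fl libraries only (7.82% over all regions) and 2 in both RXRabfl/fl libraries only (7.22% over all regions). The small peritoneal macrophage promoters given above were also called more often in LysMCre+RXRabfl/fl, as were regions of the whole series. The part of such cells in these counts was not tested.

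**Figure D3:**
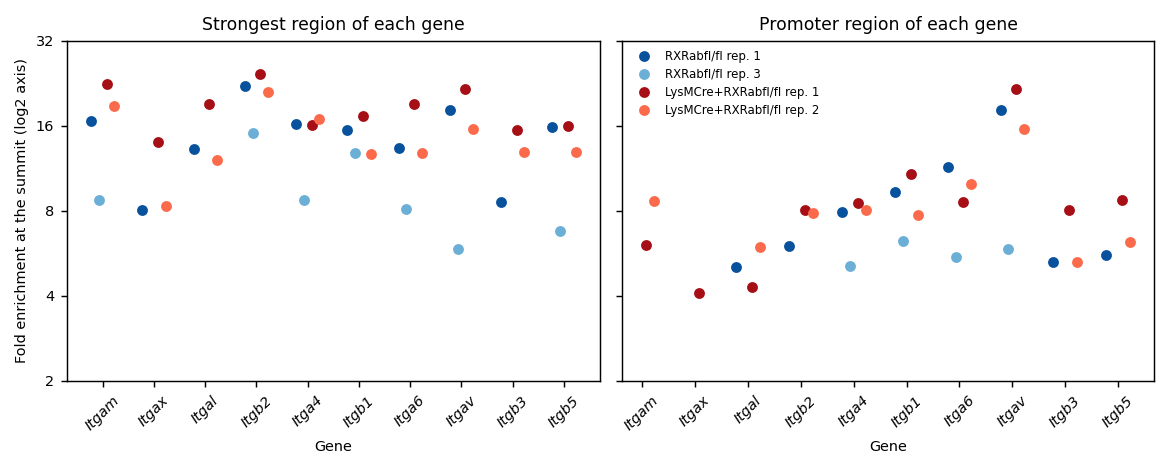
Fold enrichment at the summit (log2 axis) in each library for the strongest region (left) and the promoter region (right) of each gene. Missing points are libraries without a call. RXRabfl/fl replicate 3 was lowest or without a call at 9 of 10 strongest regions, and at the Itgb1 region it lay close to LysMCre+RXRabfl/fl replicate 2.

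Among the β2 family, Itgb2, the shared β chain, held the strongest region of all, in intron 8, 20.7 kb from its start (chr10:77550789-77551400). Its fold enrichment was 22.1 and 15.02 in RXRabfl/fl and 24.3 and 21.0 in LysMCre+RXRabfl/fl, with pileups of 338, 72, 356 and 252 tags. The genotypes overlapped, and the centred log2 change was −0.06 ± 0.22 (SE, adjusted p = 0.901 from limma, 95% interval −0.53 to 0.42). The Itgb2 promoter was called at 5.98 in RXRabfl/fl replicate 1 and at 8.06 and 7.83 (LysMCre+RXRabfl/fl) but not in replicate 3 of RXRabfl/fl. Just downstream, a region in intron 1, 0.803 kb from the start, had 6.74 and 5.56 in RXRabfl/fl and 5.60 and 4.65 in LysMCre+RXRabfl/fl. After centring, both LysMCre+RXRabfl/fl libraries lay below both RXRabfl/fl libraries there, with a log2 change of −0.63 (adjusted p = 0.162 from limma). A region 6.91 kb upstream of Itgb2 was called only in LysMCre+RXRabfl/fl, at 5.85 and 4.88.

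Itgam, the α chain that marks these cells, had its strongest region in intron 12, 26.7 kb from the start (chr7:128088981-128089702). Fold enrichment there was 16.6 and 8.76 in RXRabfl/fl and 22.4 and 18.8 in LysMCre+RXRabfl/fl, so that LysMCre+RXRabfl/fl lay above RXRabfl/fl in both libraries. The log2 change of 0.40 (95% interval −0.04 to 0.84) did not pass the threshold (adjusted p = 0.271 from limma). It was 0.08 without RXRabfl/fl replicate 3 and 0.13 on the summit pileup. At the start itself the pattern was uneven. The Itgam promoter region (chr7:128062479-128062821), whose sequence is given above, was called at 6.06 and 8.68 in the LysMCre+RXRabfl/fl libraries, with 47 and 65 tags, and in neither RXRabfl/fl library. The next region, in intron 1, 0.862 kb from the start, was called in all 4, at 6.25 and 4.09 in RXRabfl/fl and 4.30 and 3.401 in LysMCre+RXRabfl/fl. Its log2 change of −0.77 (95% interval −1.24 to −0.31) was the lowest among the integrin regions called in all 4 libraries but missed the threshold (adjusted p = 0.0862 from limma). Upstream, a region 11.7 kb from the start had 16.9 and 10.8 in RXRabfl/fl and 16.8 and 11.0 in LysMCre+RXRabfl/fl, with a log2 change of −0.36 (adjusted p = 0.348 from limma).

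Itgax and Itgal, which encode the α chains CD11c and CD11a, had no region in RXRabfl/fl replicate 3 and so none that entered the test. The strongest Itgax region, in intron 8, was called at 8.02 in RXRabfl/fl replicate 1 and at 14.0 and 8.28 in LysMCre+RXRabfl/fl, and the Itgax promoter only in LysMCre+RXRabfl/fl replicate 1, at 4.09. Itgax was called at 4 regions in RXRabfl/fl replicate 1 and at 4 and 1 in LysMCre+RXRabfl/fl. The strongest Itgal region, in intron 1, 0.993 kb from the start, was called at 13.2 in RXRabfl/fl replicate 1 and at 19.2 and 12.0 in LysMCre+RXRabfl/fl, and the Itgal promoter at 5.05, 4.30 and 5.93 in the same libraries. In these 3 libraries RXRabfl/fl replicate 1 lay between the LysMCre+RXRabfl/fl libraries at both Itgal regions.

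Of the β1 family, Itga4, the α chain that binds VCAM-1 and fibronectin, had its strongest region 123 kb upstream (chr2:79131894-79132740). Fold enrichment was 16.2 and 8.72 in RXRabfl/fl and 16.2 and 17.0 in LysMCre+RXRabfl/fl, a log2 change of 0.11 (adjusted p = 0.797 from limma). The Itga4 promoter, with its PU.1 match, was called in all 4 libraries at 7.92, 5.11, 8.51 and 8.03, and the log2 change was 0.01 (95% interval −0.46 to 0.48). Neither region differed beyond the spread between libraries. Regions 168 and 41.3 kb upstream were called only in LysMCre+RXRabfl/fl, at 8.17 and 6.96 for the first and 4.73 and 7.21 for the second. Itga6, the laminin-binding α chain, had its strongest region in intron 1, 27.2 kb from the start, at 13.3 and 8.12 in RXRabfl/fl and 19.2 and 12.8 in LysMCre+RXRabfl/fl (log2 change 0.22, adjusted p = 0.562 from limma). The Itga6 promoter changed by −0.14 on the log2 scale, with an interval of −0.64 to 0.36. The highest change among the 23 integrin regions called in all 4 libraries was in intron 20 of Itga6 (chr2:71843294-71843750), nearer to the start of Pdk1, where fold enrichment was 11.5 and 5.79 in RXRabfl/fl and 22.1 and 13.9 in LysMCre+RXRabfl/fl. Both LysMCre+RXRabfl/fl libraries lay above both RXRabfl/fl libraries, and the log2 change of 0.74 (95% interval 0.27 to 1.20) missed the threshold (adjusted p = 0.0915 from limma). Without RXRabfl/fl replicate 3 the change was 0.38 (adjusted p = 0.346 from limma). Regions 21.8 and 29.4 kb upstream of Itga6 were called only in LysMCre+RXRabfl/fl, at 5.16 and 7.26 and at 4.73 and 3.82.

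Itgb1, the β chain shared by most matrix-binding integrins, was the gene of the single integrin region that passed the threshold on the summit pileup. This region lay 90.6 kb upstream (chr8:128594725-128595336), and its sequence above held a GATA and a C/EBP match. The pileup was 145 and 41 tags in RXRabfl/fl and 70 and 58 in LysMCre+RXRabfl/fl, so the raw values overlapped, and after centring on each library's median the log2 change was −1.14 (95% interval −1.71 to −0.57, adjusted p = 0.0292 from limma). On fold enrichment the same region had 15.4 and 12.8 in RXRabfl/fl and 17.3 and 12.7 in LysMCre+RXRabfl/fl, with a log2 change of −0.29 (adjusted p = 0.495 from limma). The Itgb1 promoter was called in all 4 libraries at 9.32, 6.25, 10.8 and 7.72, with a log2 change of −0.11 (95% interval −0.58 to 0.36). Regions 134 kb upstream and 9.05 kb downstream of the start were called only in LysMCre+RXRabfl/fl, at 10.8 and 9.56 and at 5.16 and 7.54.

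Of the αv family, Itgav had its strongest region at the promoter itself (chr2:83723982-83724724), with 18.1 and 5.86 in RXRabfl/fl and 21.5 and 15.6 in LysMCre+RXRabfl/fl. After centring both LysMCre+RXRabfl/fl libraries lay above both RXRabfl/fl libraries, with a log2 change of 0.46 (95% interval −0.07 to 0.99, adjusted p = 0.284 from limma). The direction rested on RXRabfl/fl replicate 3, since the change was −0.21 without it, and it was 0.80 without RXRabfl/fl replicate 1. A region 9.46 kb upstream of Itgav was called at 6.40 in RXRabfl/fl replicate 1 and at 20.4 and 15.8 in LysMCre+RXRabfl/fl, and not in RXRabfl/fl replicate 3. The 2 regions of Itgav called only in LysMCre+RXRabfl/fl lay in intron 2, at 6.44 and 6.67, and in intron 1, at 5.49 and 3.57. Itgb3 had 4 regions in all, none called in RXRabfl/fl replicate 3, the strongest in intron 10 at 8.60 in RXRabfl/fl replicate 1 and at 15.5 and 12.9 in LysMCre+RXRabfl/fl. The Itgb3 promoter was called at 5.25, 8.06 and 5.28 in these libraries.

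Itgb5 had the most regions of the 10 genes, and its regions were the most often called in LysMCre+RXRabfl/fl alone. The strongest, in intron 1, 7.08 kb from the start, did not differ beyond the spread, at 15.8 and 6.76 in RXRabfl/fl and 15.97 and 12.9 in LysMCre+RXRabfl/fl (log2 change 0.11, adjusted p = 0.792 from limma). The Itgb5 promoter was called at 5.56 in RXRabfl/fl replicate 1 and at 8.70 and 6.19 in LysMCre+RXRabfl/fl. In intron 9, 85.6 kb from the start (chr16:33915039-33915463), the region was called at 4.71 with 13 tags in RXRabfl/fl replicate 1 and at 13.2 and 13.9 with 48 and 49 tags in LysMCre+RXRabfl/fl. Of the regions called only in LysMCre+RXRabfl/fl, the strongest lay 8.71 kb upstream, at 10.3 and 6.73, and in intron 10, at 7.41 and 7.58, and 4 of the 8 lay in introns 9 and 10. With the same number of peaks per library, Itgb5 had 2 and 2 regions in RXRabfl/fl and 2 and 3 in LysMCre+RXRabfl/fl. Of these, 0 were called in both LysMCre+RXRabfl/fl libraries only.

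**Figure D4:**
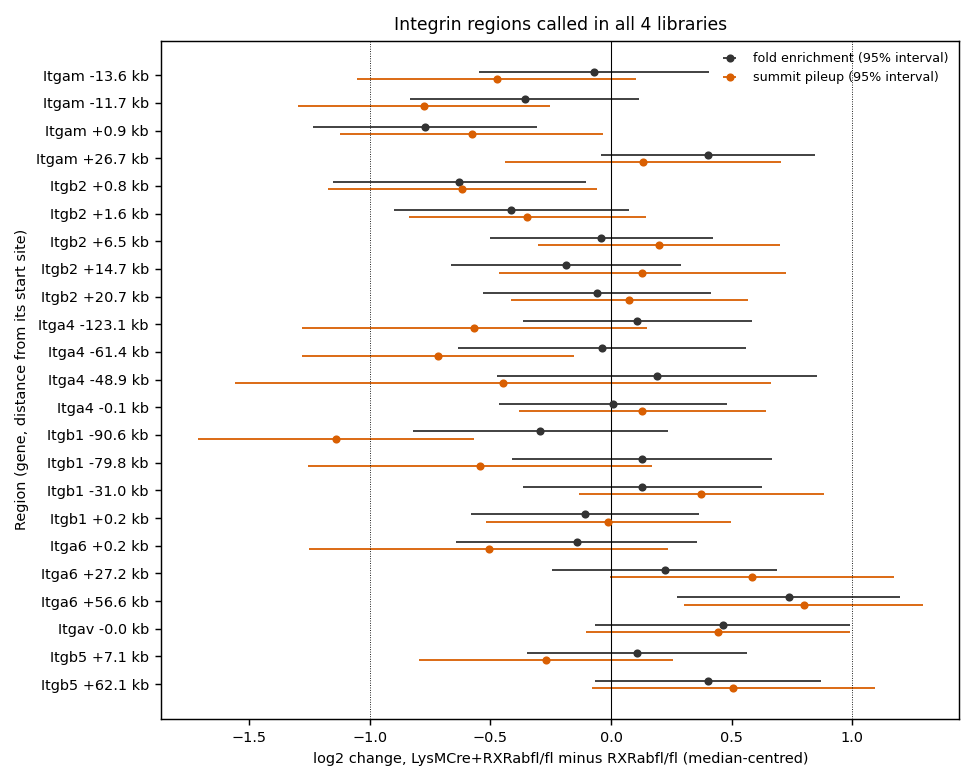
Log2 change of the 23 integrin regions called in all 4 libraries, as LysMCre+RXRabfl/fl minus RXRabfl/fl after median centring, with 95% intervals from limma, for fold enrichment and for summit pileup. Dotted lines mark a log2 change of 1 in either direction. Only the pileup of the Itgb1 region 90.6 kb upstream lay past it with an adjusted p under the threshold.

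Of the 23 testable integrin regions, 0 passed the threshold on fold enrichment in limma (adjusted p under 0.05 and a log2 change past 1), against 0.0855% of all regions tested, and 3 had an unadjusted p under 0.05, against 22.0% of all regions. Of the log2 changes, 11 were positive and 12 negative, from −0.77 to 0.74, and their median was −0.04, against −0.09 over all 15199 regions. Both LysMCre+RXRabfl/fl libraries lay above both RXRabfl/fl libraries at 4 of the 23 regions (22.3% of all regions) and below at 4 (32.9% of all regions), so neither count was above the background. On the summit pileup, 1 of 23 was lower in LysMCre+RXRabfl/fl (4.98% of all regions) and 0 were higher (2.49% of all regions), with an unadjusted p under 0.05 at 6, against 33.2% of all regions. When regions called in at least 3 libraries were tested, 0 of 50 passed in limma, against 0.0689% of all regions, and 5 had an unadjusted p under 0.05, against 14.0% of all regions. Of these 50, 27 lack RXRabfl/fl replicate 3 and so rest on 1 RXRabfl/fl library. In that fit the Itgav region 9.46 kb upstream changed by 1.26 on the log2 scale (adjusted p = 0.118 from limma) and the Itgb5 region in intron 9 by 1.30 (adjusted p = 0.112 from limma), although RXRabfl/fl replicate 3 had no call at either. When RXRabfl/fl replicate 3 was left out of the whole fit, limma called both, 2 of 50 integrin regions, higher in LysMCre+RXRabfl/fl, against 2.28% of all regions. The Itgav region had a log2 change of 1.26 (95% interval 0.73 to 1.79, adjusted p = 0.0297) and the Itgb5 region a log2 change of 1.30 (95% interval 0.72 to 1.87, adjusted p = 0.0324). The lone RXRabfl/fl library of that fit is assumed to vary like the other genotype.

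Calls at other genes of integrin biology stand beside 0.0855% of all regions on fold enrichment, 4.98% lower and 2.49% higher on the pileup, and 22.0% at an unadjusted p under 0.05 on fold enrichment. Among 17 further integrin genes, 11 regions were testable and 0 passed on fold enrichment in limma, with 0 at an unadjusted p under 0.05, while on the pileup 2 were lower in LysMCre+RXRabfl/fl, both in introns of Itga9, an α chain that pairs with Itgb1 (log2 changes −1.55 and −1.52). Among 32 activation and adaptor genes, 1 of 77 testable regions passed on fold enrichment, with 18 at an unadjusted p under 0.05. It lay in intron 1 of Pxn, the focal adhesion adaptor paxillin. Fold enrichment there was 10.4 and 5.50 in RXRabfl/fl and 3.54 and 3.55 in LysMCre+RXRabfl/fl, so that both LysMCre+RXRabfl/fl libraries lay below (log2 change −1.46, adjusted p = 0.0390 from limma). Its pileup overlapped between genotypes, at 122 and 19 tags against 74 and 72 (log2 change −0.26, adjusted p = 0.526 from limma). On the pileup, 2 of the 77 were higher and 4 lower. The higher ones were another region in intron 1 of Pxn (log2 change 1.47) and a region 11.9 kb upstream of Ptk2, which encodes focal adhesion kinase (1.12). The lower ones included Ptk2b, the related kinase (−1.24), Lims1 (−1.12) and Itgb1bp1, which binds the β1 tail (−1.12). Among 24 ligand genes, 13 regions were testable, 0 passed on fold enrichment in limma, with 2 at an unadjusted p under 0.05, and 2 were lower on the pileup, at the starts of Thbs1 (−1.31) and Fn1, which encodes fibronectin (−1.25). The median log2 change in fold enrichment was −0.21, −0.11 and −0.10 for these lists, against −0.09 over all regions.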

How the data were processed

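ATAC-seq libraries of sorted LPMs were available as 1 peak list per library. The authors trimmed adaptors with cutadapt 1.7, aligned reads to mm10 with Bowtie2, kept properly paired reads with mapping quality above 30, discarded duplicates along with mitochondrial and sex-chromosome reads, called peaks per library with MACS2 2.1.1 (extension 200 bp, q 0.05) and removed blacklisted regions with bedtools 2.24.0. The deposited fold enrichment is a ratio of summit pileup to local background, each with a pseudocount of 1, and the deposited lists also hold −log10 p and q values. The authors' read-count test used counts that are not analysed here, so edgeR was not run.

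The whole-number pileup and background of each summit were solved from fold enrichment and p value (within 0.002 on the −log10 scale, wider for larger values). Peaks sharing at least 1 bp were merged and placed on 43783 curated RefSeq transcripts of 24963 genes (GRCm38.p6, the same build). Where all 4 libraries had a call, the library median was subtracted from log2 fold enrichment and genotypes were compared by limma 3.58.1 (lmFit, eBayes) in R 4.3.3, Benjamini-Hochberg adjusted over all regions. Positive values are higher in LysMCre+RXRabfl/fl. Scripts used Python 3.11.15 and were tested on simulated data. Labels do not say whether libraries came from separate mice, so p values measure the spread between these libraries.

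All 10 genes are named with their strongest region (highest mean log2 fold enrichment among calling libraries) and promoter region, regions past a threshold, and up to 2 regions per gene called in 1 genotype only. A gene's promoter region is one that overlaps its promoter-TSS window, whereas the shares given for that window count midpoints. Other named regions were chosen after their values were seen. Up to 5 genes with calls are named per further list. The members, lists and rules were chosen with earlier results of these data known. Alternatives were a q of 0.01, an equal number of peaks, other merging, nearest TSS only, summit pileup, pileup over background (added after the data were seen), other centring, other filters, and each library left out. The number of peaks per library did not follow the order of the lowest background at a called peak. Read counts were not analysed, so depth itself was not measured, and the cause of the difference in peak number was not tested.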

Additional observations from a re-analysis of the deposited data

How the results depend on the processing

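No paired analysis was possible because the labels name no pairs of libraries between the genotypes. Of 225 values recomputed under 16 alternatives, 193 were classed as unchanged. A single region counted so if it kept its direction and its side of the threshold, and the share if it kept its sign. A median change had to stay within the median standard error of the main fit, and a count within a set ratio of the main count. The number of integrin regions past the threshold was 0 in either direction on fold enrichment, 1 lower on the summit pileup, and 0 to 2 higher when 1 library was left out. The summit pileup also gave 1 call among the strongest and promoter regions (Itgb1, −1.14), 2 higher and 4 lower calls at activation and adaptor genes, 2 lower at ligand genes and 2 lower at other integrin genes. The median log2 change of the integrin regions was −0.27 on the pileup and 0.33 without centring, where the median of all regions was 0.28. Leaving out 1 library loosened the count of regions called in 1 genotype only, since a genotype then rests on 1 library. A higher count then follows in part from the definition. Regions called in the remaining LysMCre+RXRabfl/fl libraries only then numbered 19 to 46, and those in the remaining RXRabfl/fl libraries only 0 to 4. The first was 46 without RXRabfl/fl replicate 1 and 35 without LysMCre+RXRabfl/fl replicate 2, and the second was 4 without RXRabfl/fl replicate 3. With all 4 libraries at the same number of peaks, the counts of regions called in both libraries of 1 genotype only were 1 and 2. Over all regions, limma called 6 higher and 7 lower in LysMCre+RXRabfl/fl on fold enrichment, 379 and 757 on the pileup, 56 and 78 on pileup over background, 61 and 76 with a mean-variance trend, 23 and 18 with equal peak numbers, 15 and 8 in at least 3 libraries, 9 and 2 after quantile normalization, 0 and 0 without centring, 246 and 543 without RXRabfl/fl replicate 1 and 757 and 425 without RXRabfl/fl replicate 3. The cause was not tested.

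Directions turned at regions that did not pass the threshold on fold enrichment. On the pileup these were the strongest regions of Itga4 (−0.57), Itgb2 (0.076) and Itgb5 (−0.27). Without centring they were the promoters of Itga6 (0.23) and Itgb1 (0.26) and the strongest regions of Itgb1 (0.075) and Itgb2 (0.31), and with quantile normalization that of Itgb2 (0.069). With 1 library left out the change ranged from −0.17 to 0.14 at the Itga4 promoter, −0.20 to 0.31 at the strongest Itga4 region, −0.53 to 0.13 at the Itga6 promoter, −0.21 to 0.80 at the Itgav promoter, −0.25 to 0.0038 at the strongest Itgb2 region and −0.37 to 0.25 at that of Itgb5, the lower ends at Itga4, Itga6, Itgav and Itgb5 being those without RXRabfl/fl replicate 3. The cause was not tested.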
